A study of Mus musculus with 6 samples.

Results

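The mitochondrial ribosomal protein genes described here are the 78 rows of the expression matrix whose symbol starts with Mrpl or Mrps and a number, out of 25215 genes in all. The 5 rows with such a symbol that are named as pseudogenes (-ps) were left out. Of the 78 members, 51 code for proteins of the large subunit and 26 for proteins of the small subunit, and Mrps36 was kept apart because its protein is now known as a subunit of the 2-oxoglutarate dehydrogenase complex. By the nomenclature of the field, 45 members have a bacterial counterpart and 32 are particular to mitochondria.

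Mitochondria carry their own ribosomes, which translate the few proteins encoded by mitochondrial DNA. These are all subunits of the oxidative phosphorylation complexes. The RNA of the mitochondrial ribosome comes from mitochondrial DNA, but every one of its proteins is encoded in the nucleus, made in the cytosol, and imported. Symbols follow history and not always position, since Mrps18a and Mrps30 code for proteins that sit in the large subunit.

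The cells came from subcutaneous tumors of 6 C57BL/6 mice, 2 in each of 3 conditions, grown after injection of 50000 cells into the flanks. Both flanks of a mouse were injected, so the cells of a mouse, called a tumor here, may come from more than 1 growth. In B16, tumors of the melanoma line B16-F10 were left untreated. In B16PD1, B16-F10 tumors were given anti-PD1 antibody, 200 μg to a mouse each time, on day 5, day 8, and day 11. In R499, untreated tumors were grown from Res499, a line derived from a B16 tumor that relapsed after radiation and anti-CTLA4. Harvest was on day 15 throughout. Cells without CD45 were sorted for full-length Smart-seq libraries, so that the tumor is the replicate and each condition has n = 2. The design compares tumors of 1 parental line and 1 derivative.

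Values are TPM, a transcript abundance that is divided by transcript length and sums to the same total in every cell. A higher share for some genes therefore means a lower share for others, and levels of different genes can be compared. Reads per cell are unknown from TPM, and depth is given as how many genes a cell has above 0 TPM. After a filter for cells with more than 1000 such genes and a mitochondrial share of TPM under 10%, 507 of 602 cells remained, between 75 and 91 in each tumor. B16 tumors had a median of 3518 ± 183 genes per cell (SD, n = 2 tumors), B16PD1 tumors 3823 ± 21.9, and R499 tumors 3412 ± 383. The 7 melanocyte markers were found in 65.1 to 100% of the retained cells. Of 8 immune markers, 3 were at 0 and the rest were found in up to 2.76% of cells, with the pan-leukocyte marker Ptprc in 1 cell. Summed immune marker TPM lay between 1.02 and 87.1 in the B16 tumors, 0.788 and 114 in B16PD1, and 0.872 and 1.92 in R499. Fibroblast and endothelial markers reached at most 1.18% of cells and the 3 keratinocyte markers were at 0. These shares are over all retained cells. In single tumors, the fibroblast marker Dcn reached 4.40% of cells (B16007, of B16) and the immune marker Lyz2 6.82% (B16PD1002, of B16PD1). No well position was shared between tumors and no cells were identical.

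The promoters of the 7 members that had the 3 smallest p-values of any comparison are shown, because these genes are described singly further on. With all retained cells, none of the 7 passed the threshold used there. A link between promoter letters and differences was not tested. Each line gives the 150 bases before the RefSeq start site in the direction of transcription (5′ to 3′), in GRCm38.p6, with capitals where the letters match a searched motif. The intervals are chr1:37890327-37890476 (plus strand) for Mrpl30, chr5:31613801-31613950 (plus) for Mrpl33, chr8:71464776-71464925 (plus) for Mrpl34, chr10:95501950-95502099 (minus) for Mrpl42, chr3:95871515-95871664 (minus) for Mrps21, chr6:39810937-39811086 (minus) for Mrps33, and chr9:98601680-98601829 (minus) for Mrps22.
Mrpl30: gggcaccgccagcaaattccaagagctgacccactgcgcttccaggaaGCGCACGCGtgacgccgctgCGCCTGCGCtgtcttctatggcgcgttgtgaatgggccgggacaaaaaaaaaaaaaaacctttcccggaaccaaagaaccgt
Mrpl33: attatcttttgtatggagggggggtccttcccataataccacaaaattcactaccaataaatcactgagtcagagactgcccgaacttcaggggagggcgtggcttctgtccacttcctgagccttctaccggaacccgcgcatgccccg
Mrpl34: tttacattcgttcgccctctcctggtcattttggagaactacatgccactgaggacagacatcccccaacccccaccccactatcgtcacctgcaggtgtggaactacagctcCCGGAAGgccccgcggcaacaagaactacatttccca
Mrpl42: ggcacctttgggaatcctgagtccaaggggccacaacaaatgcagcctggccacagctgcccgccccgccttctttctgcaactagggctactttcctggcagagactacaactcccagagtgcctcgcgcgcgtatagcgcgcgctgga
Mrps21: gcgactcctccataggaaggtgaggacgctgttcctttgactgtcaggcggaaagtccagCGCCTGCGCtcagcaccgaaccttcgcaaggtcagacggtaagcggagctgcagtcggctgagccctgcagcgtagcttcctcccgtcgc
Mrps33: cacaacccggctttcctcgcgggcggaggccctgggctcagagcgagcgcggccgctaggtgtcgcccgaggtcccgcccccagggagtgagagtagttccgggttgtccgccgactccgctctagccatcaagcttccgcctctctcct
Mrps22: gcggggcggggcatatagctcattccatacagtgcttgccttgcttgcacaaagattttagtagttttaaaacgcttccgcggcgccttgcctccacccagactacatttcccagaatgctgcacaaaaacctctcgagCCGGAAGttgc

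The searched letters were CCGGAAG for the ETS family, which includes GABPA, GCGCANGCG for NRF1, AANATGGCG for YY1, and TATAAA for a TATA box, on both strands. GABPA and NRF1, also called nuclear respiratory factors, are known regulators of nuclear genes for mitochondrial proteins. Among the promoters printed above, that of Mrpl30 holds the NRF1 letters at 2 places, starting 102 and 82 bases before the start site, and that of Mrps21 holds them at 90 bases. Those of Mrpl34 and Mrps22 hold the ETS letters, starting 37 and 11 bases before it, and those of Mrpl33, Mrpl42, and Mrps33 hold none of the 4 in these 150 bases.

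RefSeq promoter windows of 300 bases, from 250 before to 50 after the start, were found for 69 of the 78 members, in 75 windows. In these longer windows, Mrpl33 and Mrps33 did hold ETS letters and Mrpl42 held YY1 letters. Mrps21 held ETS letters beside those of NRF1. ETS letters were in 26 windows, which is 34.7% of them, against 8.86% of all 32851 windows. NRF1 letters were in 21.3% of the member windows against 6.25% of all, and YY1 letters in 14.7% against 2.38%. The TATA letters had the opposite order, with 6.67% of the member windows against 13.6% of all. These are counts of letters in a window and not of bound factors. The windows compared with were not limited to genes tested here. No other gene list was counted, so the shares are not shown to be particular to the members.

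The members lie on 17 chromosomes, with the largest numbers on chromosome 11 (11 members) and chromosome 17 (8 members). A protein-coding gene on the other strand starts within 1000 bases upstream of the start of 18 of the 78 (23.1%), against 11.3% of the 10825 protein-coding genes tested. Among these pairs are Mrpl30 with Mitd1 at 66 bases, Mrps12 with the mitochondrial seryl-tRNA synthetase gene Sars2 at 172, Mrps18c with Helq at 29, Mrps18b with Ppp1r10 at 45, and Mrpl32, coding for a protein matured by the mitochondrial m-AAA protease, with the proteasome gene Psma2 at 75. Mrps11 and Mrpl46, named here after their positions were seen, face each other on chromosome 7. Their RefSeq starts at 78783131 on the plus strand and 78783089 on the minus strand are 42 bases apart, so that a small and a large subunit gene share this stretch. Mrps11 is not among the 18 members counted above, which rest on GENCODE positions and not on RefSeq starts.

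Together the 78 genes contributed about 1% of the transcripts of a cell, in every tumor. The summed share of TPM was 1.06% and 1.09% in the B16 tumors B16007 and B16008, 1.13% and 1.05% in the B16PD1 tumors B16PD1000 and B16PD1002, and 1.18% and 1.10% in the R499 tumors R499015 and R499016. B16 thus had a mean of 1.08 ± 0.027 (SD, n = 2 tumors), B16PD1 of 1.09 ± 0.056, and R499 of 1.14 ± 0.056. The B16PD1 tumors overlapped with both other conditions, and the lower R499 tumor (1.097%) lay just above the higher B16 tumor (1.095%). By comparison, nuclear-encoded oxidative phosphorylation genes held 7.17% of TPM and cytosolic ribosomal proteins 15.4%, from 79 tested genes each. The 51 large subunit genes held 0.67 to 0.75% of TPM and the 26 small subunit genes 0.33 to 0.40% by tumor. The large subunit sum was 1.79 and 1.80 times the small subunit sum in B16, 1.92 and 2.09 in treated B16PD1, and 1.88 and 1.81 in R499. Both B16PD1 tumors were therefore above the other 4, a description of 2 tumors without a test.

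Single members covered a wide range of levels. The median member had 116 TPM, the middle range between the quartiles was 50.1 to 175 TPM, and 44 members had more than 100 TPM. Medians of the classes lay close to each other, with 114 TPM for the large subunit, 113 for the small subunit, 124 for members shared with bacteria, and 97.8 for those particular to mitochondria. The order of the members recurred from tumor to tumor, with Spearman's rho of 0.92 to 0.96 over the 78 genes in the 15 pairs of tumors, a description across genes that share their libraries. Members with long annotated transcripts had lower TPM, with a rho of -0.60 between mean TPM and the median transcript length of the gene. The median length was 678.5 bases for the 20 highest and 2097 for the 20 lowest members. TPM already divides by length, and the annotation used for these lengths may differ from the authors' own.

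**Figure D1:**
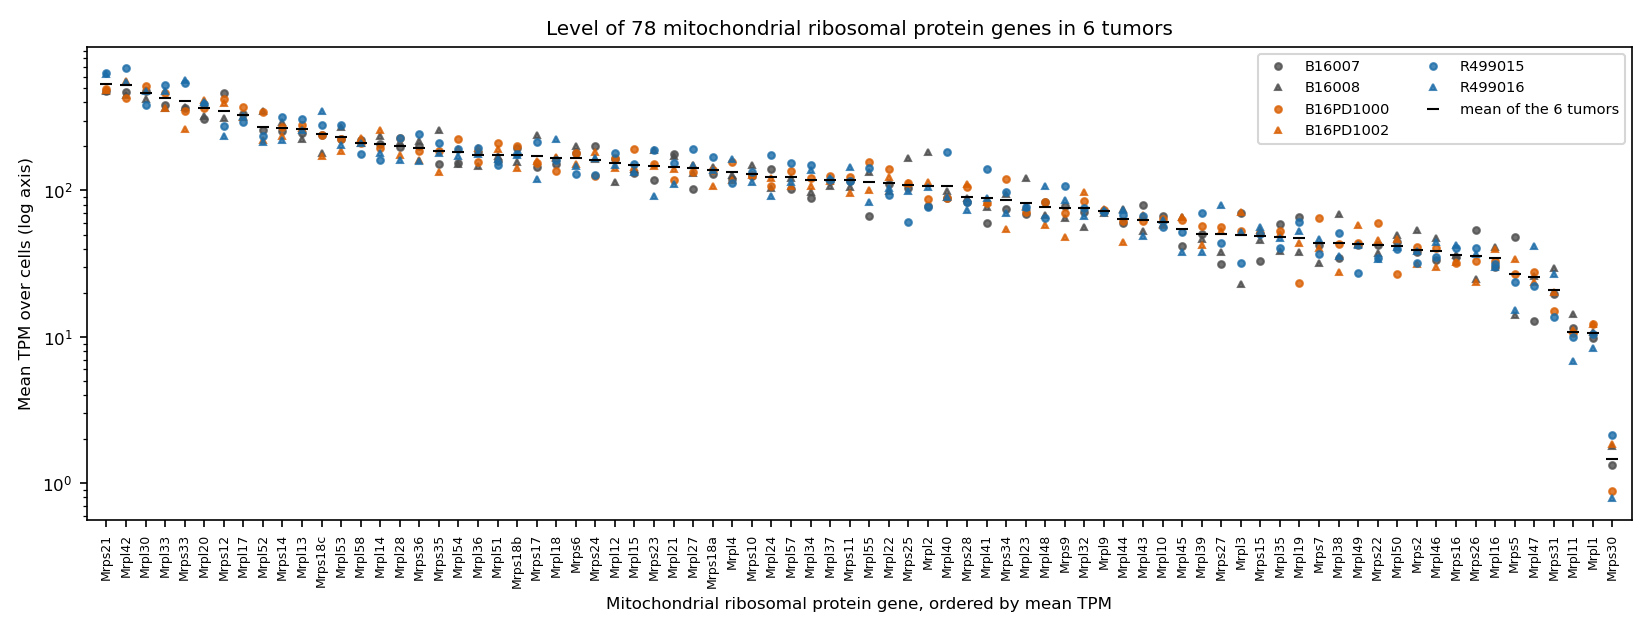
Mean TPM over the retained cells (log axis) of each of the 78 genes in each of the 6 tumors, with genes ordered from the highest to the lowest mean. Circles and triangles mark the 2 tumors of a condition and short bars the mean of the 6 tumors. Levels run from 531 TPM for Mrps21 down to 1.46 TPM for Mrps30, which lies apart from the rest.

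The 8 highest members held 30.8% of the summed TPM. Mrps21, a small subunit protein with a counterpart in bacteria (chr3:95862634-95871519, minus strand), was highest with 531 TPM. Its values were 478 and 479 TPM in B16, 493 and 483 in treated B16PD1, and 629 and 622 in R499, so that the R499 tumors lay above the other 4. Mrpl42, a large subunit protein particular to mitochondria (chr10:95480805-95501940, minus strand), had 467 and 452, 431 and 561, and 681 and 548 TPM in the same order. The ranges of these leading genes overlap, so their order is not fixed beyond the spread between tumors. They were followed by Mrpl30 with 461 TPM, Mrpl33 with 430, Mrps33 with 409, and Mrpl20 with 366. Mrps12, whose protein lies at the decoding center of the small subunit, had 350 TPM and the large subunit gene Mrpl17 had 326.

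At the low end, Mrps30 (chr13:118378381-118387252, minus strand) had 1.33 and 1.79 TPM in B16, 0.884 and 1.85 in treated B16PD1, and 2.13 and 0.793 in R499. The highest of these values is below the lowest tumor value of every other member. The next were Mrpl1, the protein of the flexible L1 stalk, and Mrpl11, a protein at the base of the other stalk, with 10.7 TPM each and overlapping ranges of 8.41 to 12.3 and 6.88 to 14.3. Mrps31 had 20.8 TPM and Mrpl47 had 25.7. Proteins of the same particle thus had transcript levels that differed 363-fold between the highest and the lowest member, and 49.8-fold when Mrps30 is left aside.

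Apart from Mrps30, described above, the members named for their roles lay within the range of the rest. The 3 related genes Mrps18a, Mrps18b, and Mrps18c, whose proteins occupy different places in the ribosome, had 137, 174, and 243 TPM. Mrpl12, which forms the stalk that binds translation factors, had 153 TPM and Mrpl58, which carries peptidyl-tRNA hydrolase activity, had 210. Mrpl41 and Mrps28 had 88.7 and 90.9 TPM. Mrps36 had 194 TPM with a range of 159 to 243 over tumors.

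A member was detected, with TPM above 0, in 61.1% of the cells at the median, and 58 members were detected in more than 50% of cells. Mrpl13, named here after its values were seen, was detected most often, in 85.2% of the 507 cells (95% Wilson interval 81.9 to 88.0%). Mrps30 was detected least often, in 8.88% (6.7 to 11.7%). These intervals cover counting error only. Mean TPM and share of cells did not run strictly together, with a rho of 0.65 over the 78 genes. Mrps21, for example, had the highest TPM but was detected in 62.3% of cells, in which it had a median of 672 TPM, and Mrps18c ranked 12 by level but was found in 46.7% of cells, with 338 TPM where present. Mrpl50, a large subunit protein particular to mitochondria, had 41.4 TPM but was detected in 66.5% of cells.

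Detection followed the number of genes found in the cell, while the summed level did not. In cells with 1000 to 2000 genes detected, 19.3 members were found on average, and this number was 33.3, 44.2, 58.4, and 68.1 in the successive bins up to cells with more than 5000 genes. The 5 bins had 59, 115, 129, 124, and 80 cells. The summed share of TPM was 1.11, 1.12, 1.09, 1.09, and 1.10% in the same bins. The fewer members that were found in a shallow cell had higher values, since the median TPM of a member in the cells that had it fell from 321 in the first bin to 94.6 in the last. The median member was found in 22.9% of cells in the first bin and 92.5% in the last, against 6.78% and 44.4% for the median gene tested.

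**Figure D2:**
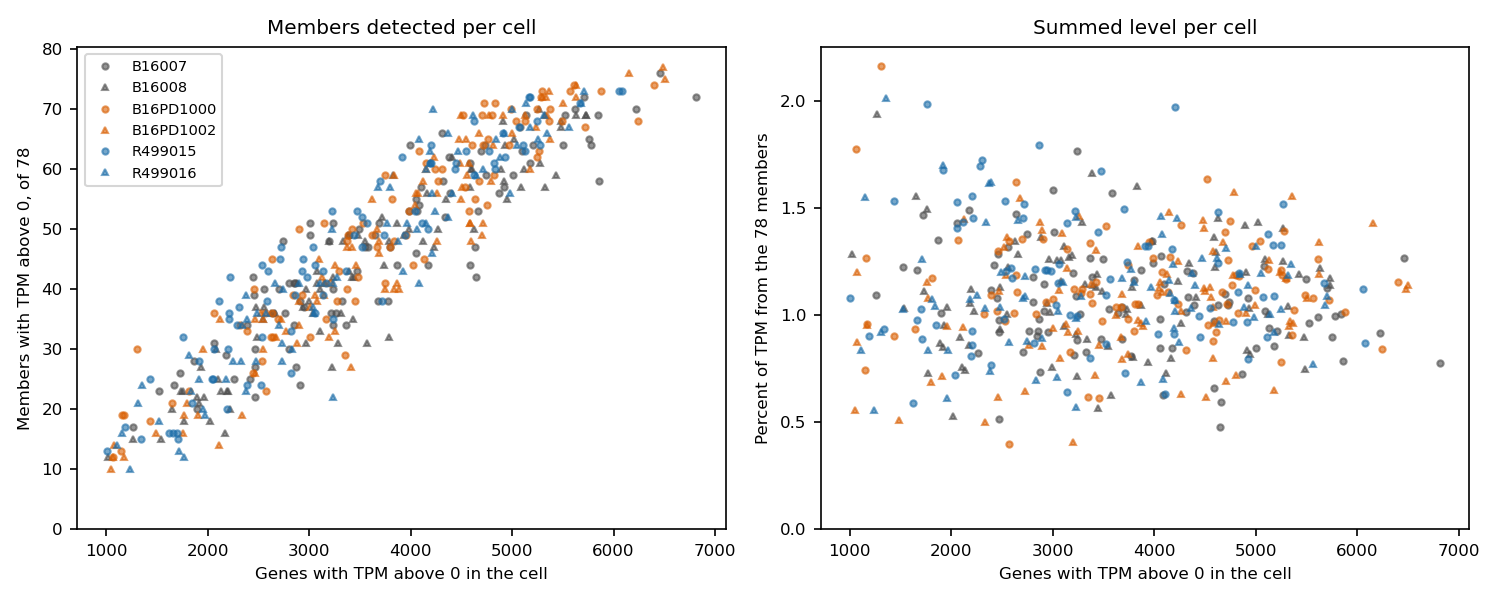
Each point is 1 of the 507 retained cells, placed by how many genes it has above 0 TPM (x axis of both panels) and by the number of the 78 members detected (left) or the percent of its TPM from the 78 members (right). Colors and symbols mark the tumors. The left panel rises from 10 to 77 members, and the right panel stays level around 1.10%, with a wider scatter in cells with few genes.

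Within tumors, Pearson's r over cells between members detected and genes detected was 0.90 to 0.95, and between summed share and genes detected it was -0.30 to 0.24. Cells of a tumor are not replicates and members are themselves among the genes counted, so these values describe the libraries. For single members, r between log2(TPM + 1) and genes detected had a median of 0.34, against 0.21 for all genes tested. That contrast went with how widely a gene is detected. Among genes found in 50 to 75% of cells, the 47 members had a median r of 0.35 and the 1538 other genes 0.33.

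The members that followed depth most closely were Mrpl33 with a median r of 0.45 over the 6 tumors, Mrpl32 with 0.44, Mrpl18, a protein of the central protuberance, with 0.44, Mrps18c with 0.43, and Mrpl20 with 0.42. The lowest were Mrpl23 with 0.04, Mrps30 with 0.08, Mrpl1 with 0.19, Mrpl11 with 0.23, and Mrpl50 with 0.24. These 5 differ in kind, because Mrps30, Mrpl1, and Mrpl11 are low in level whereas Mrpl23 had 82.3 TPM.

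Mrpl23 codes for a protein at the exit of the large subunit's tunnel, and a row named as its pseudogene, Mrpl23-ps1, is in the matrix. Mrpl23 was found in 148 cells (29.2%). Mrpl23-ps1, which is no member and is given for comparison, was found in 235 cells (46.4%) with 204.5 TPM, and only 42 cells had both. Median r with genes detected was 0.44 for Mrpl23-ps1 and 0.39 for the sum of both, which was found in 341 cells (67.3%) with 286.8 TPM. Reads of near-identical copies can be split between them by the quantification, which was not tested here, so the level of Mrpl23 alone is uncertain. The same holds in principle for Mrps36 and Mrpl48, but Mrps36-ps1, Mrps36-ps2, and Mrpl48-ps had 8.36, 17.3, and 8.50 TPM and were found in 9, 4, and 26 cells, and Mrps36-ps3 was at 0.

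Conditions were compared with limma over all 11264 genes that were found in more than 5 retained cells, which include all 78 members, on the mean of log2(TPM + 1) over the cells of each tumor. The unit of a difference is log2, a p-value is two-sided, and adjusted p-values are from the Benjamini-Hochberg method with a threshold of 0.05. This scale rises both with the level in positive cells and with the share of cells that have the gene. It is therefore given beside the log2 of the mean TPM plus 1, on which a cell without the gene weighs less. The 3 comparisons share tumors, as each condition enters 2 of them.

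The comparison of B16PD1 with B16 asks what differed after anti-PD1 treatment. On the mean log2 scale most members were higher in B16PD1, but no member passed the threshold and mean TPM showed no such majority. Of the 78 members, 60 (76.9%) had a difference above 0, against 53% of all genes, and the median difference was 0.29, against 0.01 for all genes. With log2 of the mean TPM the median was 0.00 and 39 of the 78 were above 0, and all genes had a median of -0.08 with 4763 of 11264 above 0. The share of cells with a member was higher in B16PD1 by 4.81 percentage points at the median, against 0.87 points for all genes. All genes are not matched to the members in detection. The median member was found in 61.2% of all retained cells and the median gene tested in 23.7%. No comparison of conditions with genes of like detection was made.

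By limma, 0 of the 78 members and 0% of all genes passed the adjusted threshold in this comparison. By unadjusted p under 0.05, 9 members were higher and 1 was lower, against 3.02% and 1.67% of all genes. In 31 members (39.7%) both B16PD1 tumors lay above both B16 tumors, against 17.9% of all genes, and in 3 both lay below, against 15.4%. The median was 0.37 over the large subunit and 0.20 over the small subunit, with 43 of 51 and 17 of 26 members above 0. On the mean TPM scale these medians were 0.08 and -0.07. By the median over cells, both B16PD1 tumors also had more genes detected than both B16 tumors. By the mean over cells the conditions overlapped, with 3758 and 3496 in B16 and 3787 and 3745 in B16PD1. Adding that mean to the fit gave a median difference of 0.16, and among cells with 2500 to 5000 genes the median difference was 0.22. Over all genes these medians were -0.02 and 0.02.

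**Figure D3:**
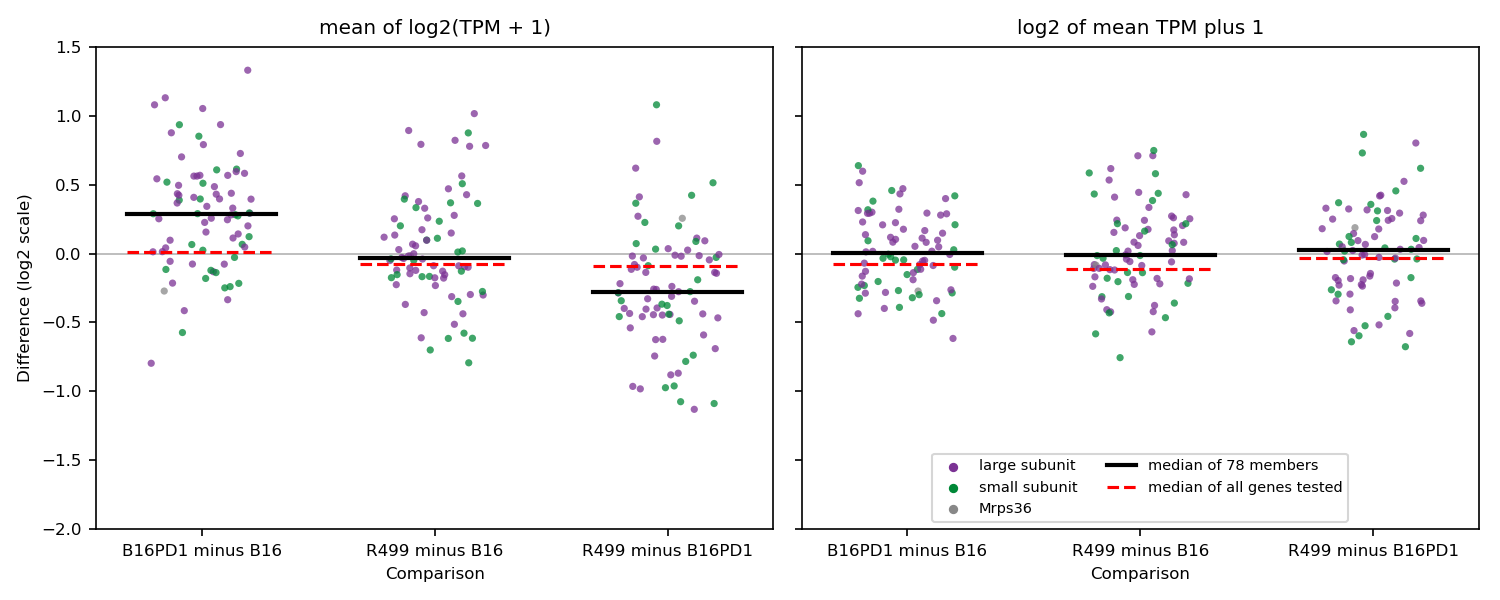
Each point is 1 of the 78 members, placed by its difference in each of the 3 comparisons, on the mean of log2(TPM + 1) (left) and on the log2 of the mean TPM plus 1 (right). Black bars mark the median of the members and red dashed bars that of the 11264 genes tested. The black bars lie at 0.29, -0.03, and -0.28 on the left and within 0.03 of 0 on the right.

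The smallest p-values were those of Mrpl30, Mrpl33, and Mrpl34, 3 large subunit genes with counterparts in bacteria. Mrpl30 (chr1:37890477-37898535, plus strand) had a mean log2 level of 6.70 and 6.43 in B16, 7.64 and 7.75 in treated B16PD1, and 6.47 and 6.95 in R499. Both B16PD1 tumors were above the other 4, with a difference of 1.13 ± 0.31 (SE) from B16 and an adjusted p of 0.989 by limma. Its mean TPM was 474 and 421 in B16 and 516 and 489 in B16PD1, which is a difference of 0.17 on the log2 scale. The share of cells with Mrpl30 was 74.7 and 75.6% in B16 and 86.0 and 89.8% in B16PD1.

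Mrpl33 had log2 levels of 5.31 and 4.64 in B16, 6.78 and 5.84 in treated B16PD1, and 5.77 and 5.97 in R499, and its difference of B16PD1 minus B16 was 1.33 ± 0.37 (SE). It had mean TPM of 381 and 363 against 465 and 366, so that the groups overlap by level but not by share of cells, at 61.5 and 51.2% against 76.7 and 67.0%. Mrpl34 had log2 levels of 2.89 and 2.65 in B16 and 4.09 and 3.60 in B16PD1, a difference of 1.08 ± 0.33 (SE), with mean TPM of 88.7 and 98.3 against 122 and 108. Adjusted p was 0.989 for both by limma.

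The comparison of R499 with B16 asks how the derived line differs from its parent without treatment. Here the members were divided. No member passed the threshold and the median difference was -0.03, against -0.07 over all genes, and 35 of the 78 (44.9%) were above 0, against 35.8% of all genes. By mean TPM the median was -0.01, against -0.11 over all genes, with 38 of the 78 and 4647 of all 11264 genes above 0. The direction of the members' median depended on the cells. It was 0.11 without a filter on cells, 0.17 in cells with more than 2000 genes, and 0.28 in cells with 2500 to 5000 genes. Over all genes the median was -0.06, -0.04, and -0.004 in the same order.

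By limma, 0 of the 78 passed, where 0.0621% of all genes did. By unadjusted p under 0.05, 7 members were higher and 0 lower, against 2.42% and 8.12% of all genes. Both R499 tumors were above both B16 tumors in 16 members (20.5%) and below in 11 (14.1%), against 11.6% and 30.1% of all genes. The smallest p-values were those of Mrpl42, Mrps21, and Mrpl34.

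Mrpl42 had a mean log2 level of 6.90 and 6.92 in B16, 6.79 and 7.43 in treated B16PD1, and 8.33 and 7.52 in R499. Both R499 tumors were above the other 4, and the difference of R499 minus B16 was 1.02 ± 0.34 (SE) with an adjusted p of 0.349 by limma. It was found in 79.1 and 79.1% of the B16 cells and in 90.1 and 85.3% of the R499 cells. In cells with more than 2000 genes Mrpl42 passed the threshold, with a difference of 1.44 and an adjusted p of 0.0308 by limma, and its adjusted p over the other alternatives was between 0.127 and 0.985. Without R499015 the difference was 0.61, and it was 1.42 without R499016.

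Mrps21 had log2 levels of 5.49 and 5.05 in B16, 5.75 and 5.81 in treated B16PD1, and 5.97 and 6.32 in R499. Its difference of R499 minus B16 was 0.88 ± 0.33 (SE) with an adjusted p of 0.38 by limma, and 0.39 by mean TPM. Mrpl34 was 0.82 ± 0.33 (SE) higher, with 3.56 and 3.62 in R499 (adjusted p = 0.394 by limma). In the same direction, Mrpl33 differed by 0.89 and Mrpl41 by 0.79. Their differences in B16PD1 minus B16, which rests on the same B16 tumors, were 1.33 and 1.05. In the other direction, Mrps12 had mean TPM of 465 and 311 in B16, 418 and 394 in treated B16PD1, and 274 and 235 in R499. Its log2 level overlapped between R499 and B16 (difference -0.79 ± 0.41 SE, adjusted p = 0.513 by limma).

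The comparison of R499 with B16PD1 sets an untreated derivative against the treated parent, so line and treatment cannot be told apart. On the mean log2 scale most members were lower in R499, and by mean TPM they were not. Of the 78 members, 18 (23.1%) were above 0, against 32.8% of all genes, and the median was -0.28, against -0.09 over all genes. By mean TPM the median was 0.03 with 42 of the 78 above 0, against a median of -0.03 and 5340 of 11264 above 0 over all genes. When the mean number of genes detected in each tumor was added to the fit, the median on the mean log2 scale was 0.07. Over all genes it was 0.006 in that fit. This covariate was lower for each R499 tumor (3332 and 3456 genes) than for either B16PD1 tumor (3787 and 3745). Depth and condition thus changed together here, and the part of each in the difference was not tested. The share of cells with a member was lower in R499 by 4.73 points at the median (difference -4.73), against -2.55 for all genes, which are again not matched in detection. The number of genes detected was also lower in R499 than in B16PD1 by the median over cells.

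By limma, 0 of the 78 passed, where 0.071% of all genes did. By unadjusted p under 0.05, 2 members were higher and 11 lower, against 1.56% and 8.64% of all genes. Both R499 tumors were below both B16PD1 tumors in 33 members (42.3%) and above in 6 (7.69%), against 31.3% and 10.2% of all genes.

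Mrps33, a small subunit protein particular to mitochondria (chr6:39801804-39810988, minus strand), went against the majority. Its mean log2 level was 6.65 and 6.68 in B16, 6.35 and 5.83 in treated B16PD1, and 7.08 and 7.26 in R499. Its mean TPM was 368 and 371, 349 and 263, and 538 and 568 in the same order. R499 was highest and B16PD1 lowest on both scales without overlap, and the difference of R499 minus B16PD1 was 1.08 ± 0.32 (SE) with an adjusted p of 0.31 by limma, and 0.87 by mean TPM. The share of cells was 75.6 and 73.9% in B16PD1 against 80.2 and 82.7% in R499, and 82.4 and 82.6% in B16. The share of cells in R499 was thus above that in B16PD1 but close to that in B16, whereas its mean TPM was above both.

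Mrps22 (chr9:98588730-98601660, minus strand), also of the small subunit, had log2 levels of 2.61 and 2.39 in B16, 3.79 and 3.08 in treated B16PD1, and 2.29 and 2.41 in R499. Its difference was -1.09 ± 0.33 (SE) with an adjusted p of 0.314 by limma, and mean TPM was 59.6 and 46.1 in B16PD1 against 34.8 and 33.9 in R499. Mrpl30 differed by -0.98 ± 0.31 (SE), with an adjusted p of 0.321 by limma. All 3 genes kept their direction when any tumor was left out, as the lowest and highest differences were 0.82 and 1.34 for Mrps33, -1.44 and -0.73 for Mrps22, and -1.22 and -0.74 for Mrpl30.

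**Figure D4:**
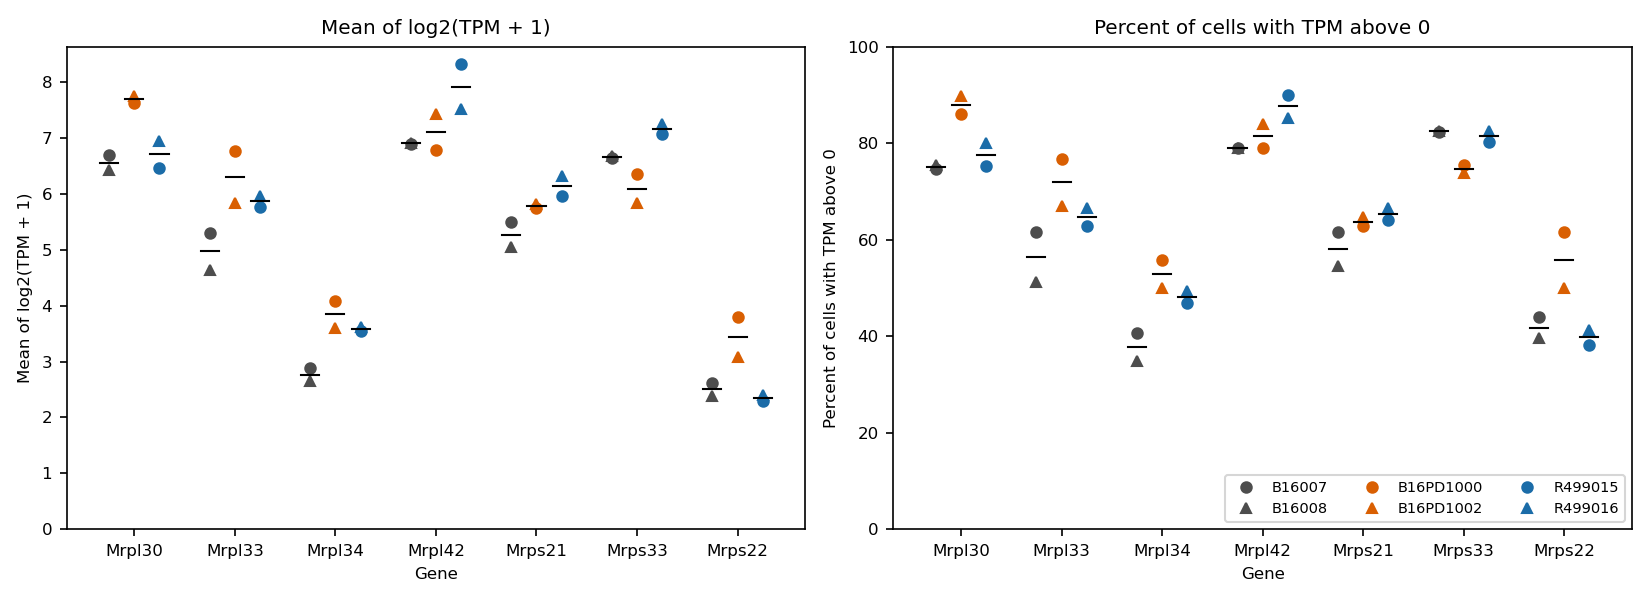
Mean of log2(TPM + 1) (left) and percent of cells with TPM above 0 (right) in each tumor for the 7 members with the smallest p-values of the 3 comparisons. Circles and triangles mark the 2 tumors of a condition and bars their mean. By condition mean, Mrpl30, Mrpl33, Mrpl34, and Mrps22 are highest in B16PD1 and Mrpl42 and Mrps21 in R499 in both panels, while Mrps33 is highest in R499 by level and in B16 by percent of cells.

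Some members varied as much within a condition as others did between conditions. The largest mean SD within conditions was that of Mrpl28, at 0.75 on the log2 scale, with 6.30 and 5.04 in B16, 6.74 and 5.73 in treated B16PD1, and 6.24 and 5.34 in R499. Mrpl3 followed with 0.57 and Mrps18a with 0.56. For Mrpl28, the 2 tumors of each condition lay further apart than the largest of its differences between conditions, 0.56. By mean TPM the tumors of Mrpl28 lay between 161 and 229.

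Other parts of the mitochondrial translation system and its products were taken as lists for comparison, and 0 of their genes passed the threshold in any of the 3 comparisons by limma. The 5 measured mitoribosome proteins with other names, among them Dap3 of the small subunit, were all above 0 in B16PD1 minus B16 (median 0.46). Dap3 differed by 0.92 ± 0.36 (SE, adjusted p = 0.989 by limma), from 5.02 and 4.92 in B16 to 6.31 and 5.48 in B16PD1. Of the 13 translation factors, such as the elongation factor Tufm, 5 were above 0 in that comparison (53% of all genes) and 3 in R499 minus B16 (35.8% of all genes), with medians of -0.13 and -0.33. The 21 assembly factors had 10 and 12 above 0. Among these, the GTPase gene Mtg1 differed by 1.45 ± 0.33 (SE) in B16PD1 minus B16, with 1.84 and 2.13 in B16 and 3.42 and 3.46 in B16PD1 (adjusted p = 0.989 by limma). The 17 mitochondrial tRNA synthetases had 7 and 6 above 0, and 18 genes of mitochondrial transcription and RNA handling had 9 and 6. Slirp, which stabilizes mitochondrial mRNAs, was 1.07 ± 0.31 (SE) higher in B16PD1 (adjusted p = 0.989 by limma).

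The 13 mitochondrially encoded proteins are what these ribosomes make. In each comparison with B16, 10 of the 13 were above 0, against 53% of all genes for B16PD1 and 35.8% for R499. Their medians were 0.10 and 0.15 in the same order. The filter for cells under 10% of mitochondrial TPM also limits the level of these genes. Nuclear-encoded oxidative phosphorylation genes were above 0 in 62 of 79 for B16PD1 minus B16, against 53% of all genes, and in 69 of 79 for R499 minus B16, against 35.8% of all genes. Their medians were 0.23 and 0.30, and the lowest adjusted p was 0.0907 by limma, for Uqcrb of complex III. On the mean TPM scale, their R499 minus B16 median was 0.22 whereas that of the 78 members was -0.01. The summed share of oxidative phosphorylation genes was 6.72 and 6.59% in B16, 7.25 and 6.68% in treated B16PD1, and 8.23 and 7.56% in R499, and the R499 tumors were above the other 4. Cytosolic ribosomal proteins were above 0 in 74 of 79 for B16PD1 minus B16, against 53% of all genes, and in 7 of 79 for R499 minus B16PD1, against 32.8%, with medians of 0.26 and -0.43. In the latter comparison 31 of the 79 were lower by unadjusted p under 0.05, against 8.64% of all genes.

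Over cells, the members varied together little once depth was taken into account. The median r of log2(TPM + 1) over the 3003 pairs of members was 0.13 in the 507 cells, and 0.02 after the number of genes detected was regressed out. The same values were 0.15 and 0.06 for oxidative phosphorylation genes and 0.14 and 0.09 for cytosolic ribosomal proteins, which are detected in more cells. The summed share of the members had an r with the summed share of oxidative phosphorylation genes of 0.11 to 0.46 within tumors, and of -0.16 to 0.12 with cytosolic ribosomal proteins. Outside the members, the genes whose log2 level was most like the summed share over the 507 cells were Ppia (r = 0.34), H2afz (0.30), and Stmn1 (0.26). The members reached 0.25 (Mrps21), but each member is part of that sum, so the values are not of like kind. The shares in a cell sum to a fixed total, so these values describe the libraries and carry no test.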

How the data were processed

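Cells were prepared with the SMARTer ICELL8 SMART-Seq protocol. The authors aligned reads with STAR in 2-pass mode and quantified them with RSEM with default settings, and the submitters' processing notes name mm10. Versions are not given in the sources used here. The deposited matrix holds TPM for 25215 genes in 602 cells, and was used as deposited (0 columns were left out). TPM keeps no read counts, so cells could not be thinned to a common depth and the depth behind a value is unknown. Doublets were not called.

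The columns name tumors and conditions. Retained cells had more than 1000 genes above 0 and under 10% of TPM from 37 mitochondrial genes. Genes in more than 5 retained cells were tested (11264) with limma 3.58.1 in R 4.3.3 (eBayes with a trend) on tumor means of log2(TPM + 1), with the pseudocount of 1. The fold of low genes is understated on this scale. Python 3.11.15 did the rest (pandas 2.3.3, numpy 2.4.6, scipy 1.17.1, and for figures matplotlib 3.10.9). Positions and lengths are from GENCODE M21 on GRCm38, promoters from RefSeq. The fit was tested on simulated data, in which 200 of 11264 genes were given a difference in R499 minus B16. It called 55 of the 200, of which 51 had size 2 and 4 had size 1, and 3 other genes. Most of the 200 were thus missed, so a gene that did not pass is not shown to be unchanged.

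The members and lists were chosen with earlier results of these data known. Members are named if they had the 3 smallest p-values of a comparison, the 8 highest or 5 lowest TPM, the 5 highest or lowest r with genes detected, the 3 largest SDs within conditions, or a role listed beforehand. Of each list, genes with the 2 smallest p-values or 2 highest TPM could be named, and 3 outside genes most like the summed level. Alternatives were other pseudocounts (0.1 and 10), log2 of mean TPM, percent of cells, other filters, centering, a covariate, no trend, and leaving out each tumor.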

Additional observations from a re-analysis of the deposited data

How the results depend on the processing

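No paired analysis was possible because the columns carry no replicate number of the labels. The tumors also came from different mice, and no pairing of mice between conditions is described. The count of members past the threshold was 0 in every comparison under all alternatives, leaving out tumors included, except in R499 minus B16 with cells of more than 2000 genes, where it was 1 (Mrpl42). The 9 differences of members with the smallest p-values kept their direction in all 19 alternatives. With n = 2, the count of calls over all genes was itself unstable. In R499 minus B16 it was 7 and ran from 0 to 28, in R499 minus B16PD1 it was 8 and ran from 0 to 22, and in B16PD1 minus B16 it was 0 and reached 13 without a filter on genes.

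The median difference over the members depended on how cells without a transcript were weighed. For B16PD1 minus B16 (0.29) it was 0.48 and 0.14 with pseudocounts of 0.1 and 10, 0.00405 with log2 of mean TPM, 4.81 points with percent of cells, 0.16 with genes detected as a covariate, and 0.16 to 0.41 with 1 tumor left out (0.16 without B16008 and 0.17 without B16PD1000). For R499 minus B16PD1 (-0.28) it was -0.44 and -0.11 with the pseudocounts, 0.027 with log2 of mean TPM, -4.73 points with percent of cells, -0.15 without a filter on cells, 0.036 in cells with 2500 to 5000 genes, -0.14 with each cell centered, 0.067 with the covariate, and -0.41 to -0.15 with 1 tumor left out (-0.15 without B16PD1000). For R499 minus B16 (-0.03) it was -0.81 points with percent of cells, 0.11 without a filter on cells, 0.17 in cells of more than 2000 genes, 0.28 in those with 2500 to 5000, 0.22 with the covariate, and -0.17 (without B16008) to 0.16 (without B16007). The cause of these changes was not tested.

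The summed percent of TPM stayed within its spread in the alternatives run. The median percent of cells with a member was 59.7 in R499 without a filter on cells, 59.9 in B16PD1 and 56.0 in R499 with a mitochondrial limit of 5%, 62.1 in B16, 69.2 in B16PD1, and 65.9 in R499 with more than 2000 genes, and 64.8 in R499 with 2500 to 5000. The median r with genes detected (0.34) was 0.20 in cells with 2500 to 5000 genes, 0.27 as Spearman's rho, and -0.32 over cells above 0 only.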
